A study of Homo sapiens with 8 samples.

Results

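Kinesins are motor proteins that use ATP to move along, slide or take apart microtubules, and the human genes fall into families that serve cell division, cargo transport and cilia. Messenger RNA for these motors and their accessory chains was examined in brain organoids, which are neural tissues grown in culture from pluripotent stem cells. The members were all genes whose symbol is KIF followed by a digit, together with KIFC1, KIFC2, KIFC3, the kinesin-2 accessory subunit KIFAP3 and the kinesin light chains KLC1 to KLC4. They made up 46 of the 17504 genes in the table. By known role, 13 were placed with the mitotic spindle and cytokinesis, 19 with axonal and dendritic transport, 6 with cilia or Hedgehog signalling, and 8 with other functions. KIF2B and KIF28P were not found by symbol among the 17504 genes. The kinetochore kinesin CENPE does not carry a KIF symbol and was read with the spindle partners.

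All organoids came from IMR90-4, an established human induced pluripotent stem cell line, and were collected at day 30. The control line, called FCT, is labelled WT for genotype, and the FKD line carries a FABP7 knockdown. FABP7 encodes the brain fatty acid binding protein of radial glia. Each of the 2 groups had 3 bulk RNA libraries, and 2 single-cell libraries were not analysed here. The sources used here do not name the knockdown reagent, say how many clones were used or say how many organoids were pooled. The series' design text speaks of adipogenic differentiation where the sample labels give brain organoid. No source states that the 3 libraries of a group are separate cultures. The p-values therefore reflect only library-to-library variation, part of which may be technical.

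Library totals ran from 13424959 to 15675888 counts. FABP7 had 3123, 2650 and 2850 counts in the controls against 14, 15 and 16 after knockdown, a log2 fold change of -7.57 ± 0.09 (SE, adjusted p = 6.04e-26, edgeR quasi-likelihood test). Of 13468 genes tested, 51.7% were called at an adjusted p under 0.05, 26.4% higher and 25.3% lower in the knockdown, and the median over all genes was -0.01 (log2 fold change). Pan-neuronal genes were abundant in every library, with a summed level of 3669 to 3771 TPM (a level scaled to transcript length and library size) in the controls and 2406 to 2451 in the knockdown. Of these 16 genes, 15 were lower and none was higher. Among 14 radial glia genes 5 were higher and 5 lower, with FABP7 itself among the lower. Marker sums for motile cilium and choroid plexus were 7.58 to 8.68 TPM against 5.90 to 6.94, and those for endothelium were 0.32 to 0.78 against 0.32 to 0.57. The mesenchyme sum was 5.50 to 6.25 TPM in the controls and 10.1 to 10.9 in the knockdown. Of 5 microglia genes AIF1 was tested and was higher, and the other 4 were too low to test, while 1 of 4 pluripotency genes tested, LIN28A, was lower. The part of these cell types in the kinesin results was not tested. In these bulk libraries, fewer cells of a type and less RNA per cell cannot be told apart.

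Kinesins work in distinct ways. Dividing cells use them to build a bipolar spindle, to align chromosomes and to complete cytokinesis, and many of these genes are transcribed mainly in the G2 and M phases. Neurons no longer divide and rely on kinesins to carry vesicles, mitochondria and other cargo along axons and dendrites.

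The kinesin genes separated by role. Of the 40 members that passed the filter on low counts, 15 were higher in the knockdown, 17 were lower and 8 were not called, against the 51.7% of all genes called. Of 12 mitotic kinesins tested, 11 were higher and 1 was lower, and their median log2 fold change was 0.78. Of 19 transport kinesins, 1 was higher, 14 were lower and 4 were not called, with a median of -0.27. At least 1.5-fold higher levels were fitted for 9 of the 12 mitotic and 0 of the 19 transport genes, against 5.28% of all genes tested. At least 1.5-fold lower levels were fitted for 2 transport genes and 0 mitotic genes, against 7.79%. All 3 knockdown libraries lay above all 3 controls for 11 mitotic and 2 transport genes, against 29.1% of all genes tested, and below them for 1 mitotic and 14 transport genes, against 28.2%. The groups did not overlap in either direction for all 12 mitotic and 16 of the 19 transport genes, against 57.3%.

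**Figure D1:**
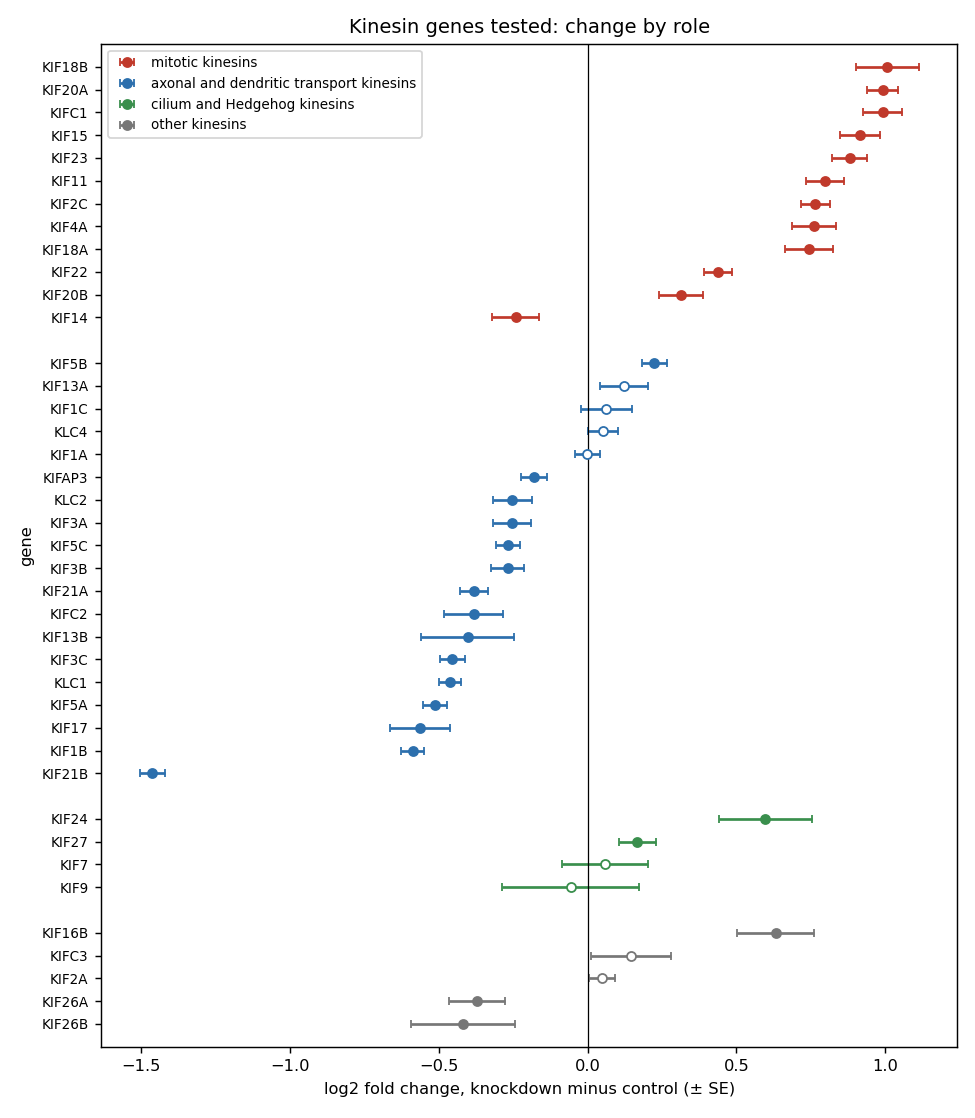
Log2 fold change of each tested kinesin gene, knockdown minus control, with its standard error, grouped by role (3 libraries per group). Filled points were called at an adjusted p under 0.05 and open points were not. The mitotic genes lie between -0.24 and 1.01 and the transport genes between -1.46 and 0.22.

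Kinesins of the central spindle and cytokinesis rose, with KIF14 as the exception. KIF20A, which brings the chromosomal passenger complex to the central spindle, had 48.3, 48.3 and 51.0 CPM (counts scaled to library size with TMM factors) in the controls and 102, 98.9 and 93.0 in the knockdown. All 3 knockdown libraries lay above all 3 controls, and the log2 fold change was 0.99 ± 0.05 (SE, adjusted p = 4.23e-13, edgeR). KIF23, the motor of the centralspindlin complex, had 34.1, 32.4 and 33.1 CPM against 62.3, 58.9 and 62.2. Its groups were apart too, with a log2 fold change of 0.88 ± 0.06 (adjusted p = 1.68e-11, edgeR). KIF4A, a chromokinesin that sets the length of the central spindle with PRC1, rose from 23.7, 24.6 and 27.9 CPM to 45.8, 43.6 and 39.4, by 0.76 ± 0.07 (adjusted p = 1.16e-08, edgeR). KIF20B, needed for late cytokinesis, had 29.6, 28.3 and 31.9 CPM against 35.7, 34.5 and 41.3. That difference was smaller, at 0.31 ± 0.07 (adjusted p = 0.00111, edgeR), and it did not pass the test on log2(TPM + 1), at 0.11 (adjusted p = 0.251, limma).

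KIF14, which acts with citron kinase at the midbody, was the mitotic kinesin that fell. It had 22.3, 19.3 and 20.8 CPM in the controls and 17.9, 17.2 and 17.8 in the knockdown, so every knockdown library lay below every control. The log2 fold change was -0.24 ± 0.08 (adjusted p = 0.0147, edgeR). The call was lost in DESeq2 (adjusted p = 0.0798), without control library 1 (adjusted p = 0.0889, edgeR) and without knockdown library 2 (adjusted p = 0.063, edgeR).

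The 4 mitotic kinesins placed here as building and focusing the spindle all rose. KIF2A, a kinesin-13 motor placed with other functions, was tested and not called (adjusted p = 0.363, edgeR). KIF11, which slides antiparallel microtubules apart, had 31.1, 35.1 and 37.6 CPM in the controls and 58.9, 60.8 and 60.3 in the knockdown. KIF15, which helps KIF11 to keep the spindle bipolar, had 27.2, 26.8 and 23.5 against 50.8, 47.8 and 47.5. KIFC1, a minus-end-directed motor that focuses spindle poles, had 33.3, 33.5 and 28.4 against 63.6, 61.0 and 64.5. None of these groups overlapped, and the log2 fold changes were 0.80 ± 0.06, 0.91 ± 0.07 and 0.99 ± 0.06. Adjusted p-values were 5.83e-10, 1.17e-10 and 1.36e-11 (edgeR). KIF18B, which shortens astral microtubules, had 7.72, 8.55 and 6.88 CPM against 14.3, 15.9 and 16.2, and its log2 fold change of 1.01 ± 0.10 was the highest fitted among the 40 genes (adjusted p = 3.11e-08, edgeR).

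Kinesins of chromosomes and kinetochores that carry a KIF symbol rose as well. KIF2C, a microtubule depolymerase that corrects faulty kinetochore attachments, had 64.8, 69.3 and 67.5 CPM against 119, 112 and 112, a log2 fold change of 0.77 ± 0.05 (adjusted p = 9.72e-12, edgeR). KIF18A, which dampens chromosome movements at the metaphase plate, had 15.7, 14.5 and 16.0 against 24.8, 24.9 and 27.7. Its log2 fold change was 0.74 ± 0.08 (adjusted p = 5.63e-08, edgeR). KIF22, which pushes chromosome arms outward, had 90.7, 89.9 and 83.4 against 118, 120 and 120 and rose by 0.44 ± 0.05 (adjusted p = 5.09e-08, edgeR). The knockdown libraries were above the controls for all 3 genes. KIF4B, a retrocopy closely related to KIF4A, did not pass the filter on low counts, and its reads may be shared with KIF4A. The deposited counts of both genes were whole numbers in every library, and sharing of reads was not tested.

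**Figure D2:**
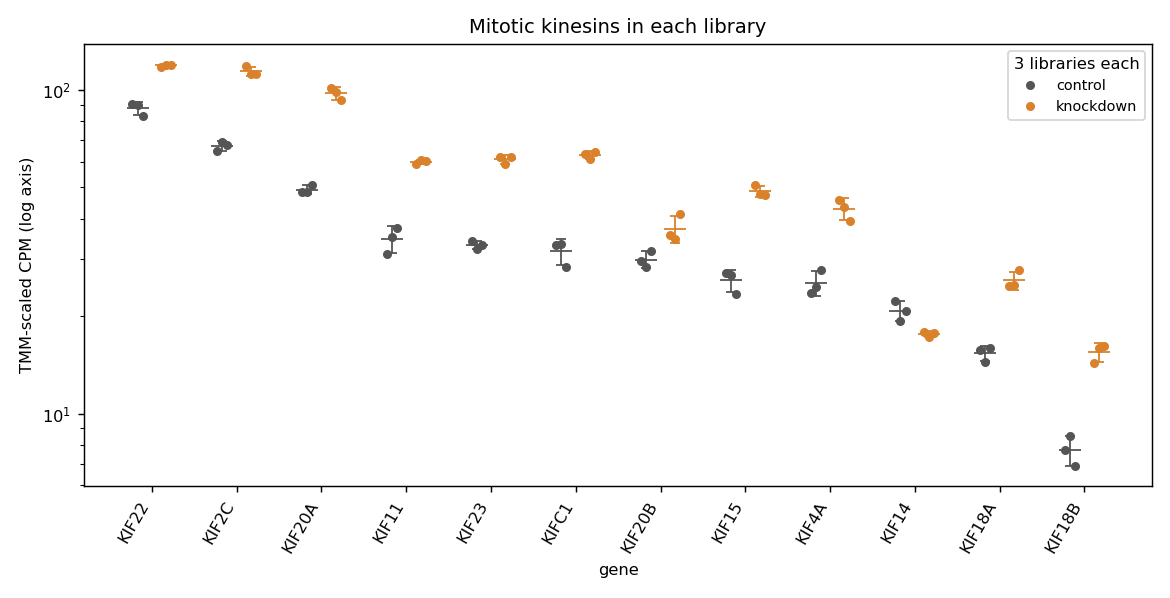
TMM-scaled CPM of the 12 tested mitotic kinesins in each library on a log axis, with points for the 3 control and 3 knockdown libraries and bars for the mean and SD. The groups are apart for all 12 genes, and KIF14 is the gene whose knockdown points, 17.2 to 17.9, lie below its controls.

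Genes that work with these motors in the spindle moved alongside them. Of 20 spindle and cell cycle partners, 19 were higher and 1 was lower, against 26.4% and 25.3% of all genes tested, and their median was 0.78 (log2 fold change). TOP2A, which untangles sister chromatids, changed by 1.14 and the mitotic kinase CDK1 by 1.20. The spindle assembly factor TPX2 changed by 0.95 and the midzone bundler PRC1 by 0.89, while NUMA1, which anchors dynein at the spindle poles, changed by -0.30. The kinetochore kinesin CENPE rose less than KIF2C and KIF18A, by 0.31 ± 0.07 (adjusted p = 6.97e-04, edgeR). On log2(TPM + 1) its difference was 0.11. Summed mitotic kinesin TPM divided by summed partner TPM was 0.308 ± 0.012 (SD, n = 3) in the controls and 0.281 ± 0.0070 in the knockdown. KIF22 holds much of the sum, and without it the ratio was 0.209 ± 0.0057 and 0.205 ± 0.0070, with overlapping groups.

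The mitotic kinesins also shared short promoter motifs that their choice did not use. RefSeq promoters (GRCh38.p14, 250 bases before to 50 after the start) were matched for 36 of the 46 members, 13 of them mitotic and 13 transport. The cell cycle homology region, a motif known from genes of the G2 and M phases, was searched as TTTGAA or TTTAAA on both strands, and the NF-Y box as CCAAT on both strands. TTTAAA reads the same on both strands, and matches were counted also where their end bases overlapped. A cell cycle homology match was found in 12 of 13 mitotic promoters (92.3%), 1 of 13 transport promoters (7.69%, KIF5B) and 16.3% of the 11039 promoters of tested genes. It was found in 24.3% of all 27305 promoters. CCAAT was found in 11 of 13 mitotic promoters (84.6%), 3 of 13 transport promoters (23.1%) and 36.8% of the promoters of tested genes, and in 35.7% of all promoters. The 13 mitotic promoters include KIF4B, which was not tested. Of the 12 tested mitotic genes, 11 held a cell cycle homology match (91.7%) and 10 held CCAAT (83.3%). KIF22 was the mitotic gene without a cell cycle homology match. A match is a description of letters and not a bound site.

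The 120 bases before the start are shown for 5 genes, to set 3 mitotic genes that rose beside KIF14, which fell, and the transport gene KLC1. Sequences run 5′ to 3′ on the gene's own strand, and capitals mark matches to the motifs. ATTGG and TTCAAA are CCAAT and TTTGAA read on the opposite strand.
KIF20A, chr5:138178992-138179111, plus strand: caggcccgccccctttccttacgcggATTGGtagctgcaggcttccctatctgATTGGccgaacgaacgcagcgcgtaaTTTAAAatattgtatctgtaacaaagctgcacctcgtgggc
KIF23, chr15:69414229-69414348, plus strand: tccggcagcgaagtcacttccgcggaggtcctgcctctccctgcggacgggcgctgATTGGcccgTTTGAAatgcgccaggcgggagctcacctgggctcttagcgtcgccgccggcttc
KIF11, chr10:92593010-92593129, plus strand: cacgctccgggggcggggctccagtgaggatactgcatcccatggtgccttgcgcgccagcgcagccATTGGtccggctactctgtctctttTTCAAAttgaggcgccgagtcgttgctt
KIF14, chr1:200620752-200620871, minus strand: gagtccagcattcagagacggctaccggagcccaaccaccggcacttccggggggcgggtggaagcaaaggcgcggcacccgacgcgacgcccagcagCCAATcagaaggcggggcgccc
KLC1, chr14:103629091-103629210, plus strand: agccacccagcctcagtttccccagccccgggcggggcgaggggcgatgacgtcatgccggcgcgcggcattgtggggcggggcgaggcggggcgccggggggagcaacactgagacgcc
KIF20A has 3 matches in this stretch, KIF23 and KIF11 have 2 each, KIF14 has 1 and KLC1 has 0. The KIF14 stretch holds a CCAAT match, while its cell cycle homology matches start at -198 and at 2, outside the bases shown. Counted over the whole window, KIF14 holds both motifs, as KIF20A, KIF23 and KIF11 do.

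Among the transport motors, the kinesin-1 heavy chains moved apart. KIF5A and KIF5C are the neuron-enriched forms of this motor for vesicles and mitochondria, and KIF5B is the broadly expressed form. KIF5A had 56.0, 58 and 58.5 TPM in the controls and 35.5, 35.5 and 35.4 in the knockdown, with no overlap. It fell by 0.51 on the log2 scale of the count test (SE 0.04, adjusted p = 3.46e-10, edgeR). KIF5C had 127, 128 and 135 TPM against 93.0, 93.4 and 100, and it fell by 0.27 (SE 0.04, adjusted p = 7.33e-06, edgeR). KIF5B was the transport gene that rose, from 436, 422 and 468 CPM to 495, 520 and 535, by 0.22 ± 0.04 (adjusted p = 1.42e-04, edgeR). In TPM its libraries overlapped, at 118, 114 and 127 against 117, 123 and 128, and the difference on log2(TPM + 1) was 0.04 (adjusted p = 0.542, limma). The median of all genes was -0.16 on that scale and -0.01 in the count test. Most transport genes are given per library in TPM, while the mitotic genes are given in CPM. Falls therefore look larger in the printed TPM than in the count test.

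As a share of KIF5 TPM, which does not depend on the scaling between libraries, KIF5B went from 38.9% ± 0.80 (SD, n = 3) in the controls to 48.4% ± 0.58 in the knockdown. KIF5A went from 18.7% ± 0.54 to 14% ± 0.53, and KIF5C from 42.3% ± 0.26 to 37.6% ± 0.52. The groups did not overlap for any of the 3 shares. An exact two-sided permutation test with 3 libraries per group cannot go below 0.1, so no p is given for the shares.

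Light chains link kinesin-1 to its cargo. KLC1, the neuron-enriched light chain and the most abundant kinesin gene by TPM, had 295, 303 and 299 TPM against 191, 187 and 197, and it fell by 0.46 (SE 0.04, adjusted p = 6.23e-10, edgeR). KLC2 had 42.6, 45.2 and 36.8 TPM against 30.3, 29.5 and 32.2, and it fell by 0.25 (SE 0.07, adjusted p = 0.0029, edgeR). KLC4 was not called, at 0.05 ± 0.05 (adjusted p = 0.412, edgeR), and its share of light chain TPM was 19.8% ± 1.0 in the controls and 25.7% ± 0.51 in the knockdown. KLC1 overlaps XRCC3, KLC2 overlaps PACS1 and KLC4 overlaps MRPL2 in the annotation, so reads in the shared stretches may have been assigned to either gene. The deposited counts were not whole numbers in 6 libraries for KLC2 and in 0 libraries for KLC1 and KLC4.

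All 5 kinesin-2 genes tested fell. This motor pairs KIF3A with KIF3B or KIF3C, has KIFAP3 as accessory subunit and serves axonal transport as well as cilium assembly. KIF17 is its homodimeric relative in dendrites and cilia. KIF3C, the neuron-enriched partner, had 77.6, 83.3 and 76.8 TPM against 51.7, 49.2 and 51.6, and it fell by 0.45 (SE 0.04, adjusted p = 4.96e-09, edgeR). KIF17 had 5.86, 5.31 and 5.29 TPM against 3.44, 3.20 and 3.31, and it fell by 0.56 (SE 0.10, adjusted p = 5.80e-05, edgeR). The other decreases were smaller, with log2 fold changes of -0.27 for KIF3B, -0.25 for KIF3A and -0.18 for KIFAP3, and the knockdown libraries lay below the controls for each of them. Among the KIF3 motors, the TPM shares of KIF3A and KIF3C overlapped between the groups, while that of KIF3B was 12.1 to 12.2% in the controls and 12.6 to 13.8% in the knockdown, with no overlap.

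**Figure D3:**
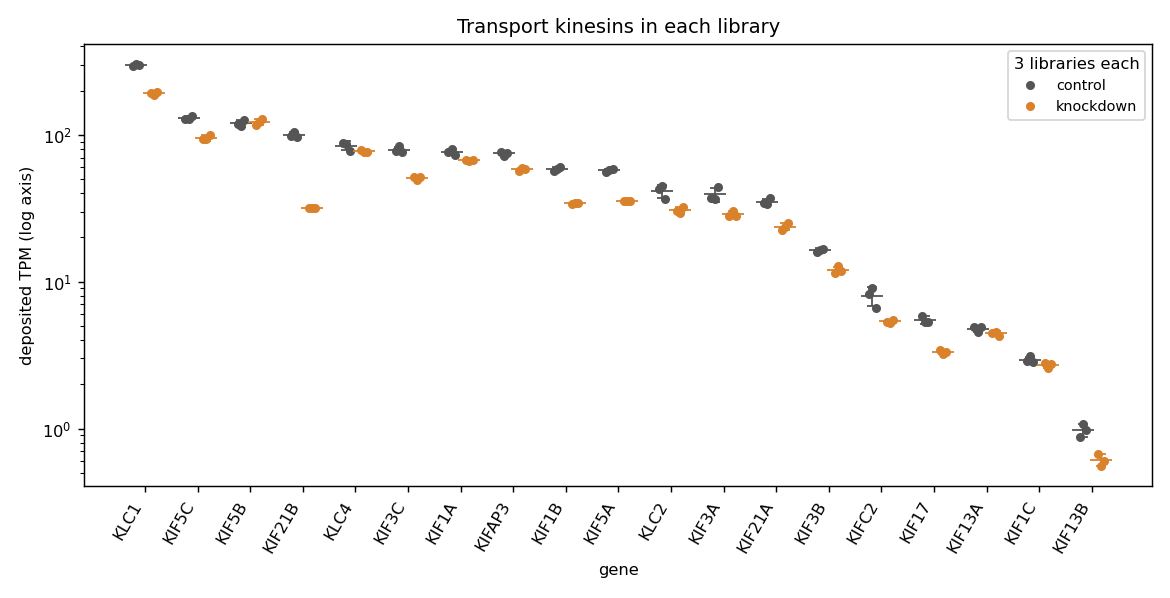
Deposited TPM of the 19 transport kinesins in each library on a log axis, with points for the 3 control and 3 knockdown libraries and bars for the mean and SD. KIF21B shows the widest gap between groups. On log2(TPM + 1) the median of all genes was -0.16.

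Kinesin-3 motors carry synaptic vesicle precursors and dense core vesicles. KIF1A, the neuronal member, was not called, with 437, 452 and 410 CPM against 440, 428 and 431 and a log2 fold change of -0.000572 (SE 0.04, adjusted p = 0.993, edgeR). In TPM its groups were apart, at 76.8, 79.6 and 72.4 against 67.8, 66.0 and 67.1. The difference on log2(TPM + 1) was -0.18 (adjusted p = 0.00674, limma), near the median of all genes on that scale, -0.16. KIF1B, which also carries mitochondria, had 56.3, 58.6 and 60.2 TPM against 34.0, 34.2 and 34.5, and it fell by 0.59 (SE 0.04, adjusted p = 1.76e-11, edgeR). The KIF1A share of KIF1 TPM was 55.4% ± 1.7 in the controls and 64.5% ± 0.33 in the knockdown, with no overlap. KIF13A and KIF1C were not called, at 0.12 ± 0.08 and 0.06 ± 0.09 (adjusted p = 0.212 and 0.564, edgeR). KIF13B, near 1 TPM or below, was called lower at -0.40 ± 0.16 (adjusted p = 0.0347, edgeR), and the call was lost in DESeq2 and without any of control library 2, knockdown library 2 or knockdown library 3 (highest adjusted p = 0.165).

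KIF21B had the greatest fall of the 40 genes. KIF21A and KIF21B are kinesin-4 motors that restrain microtubule growth, and KIF21B is enriched in neurons and acts in dendrites and axons. KIF21B had 588, 632 and 583 CPM in the controls and 218, 220 and 217 in the knockdown, so the groups were far apart. It was 2.75-fold lower, a log2 fold change of -1.46 ± 0.04 (SE, adjusted p = 3.34e-18, edgeR). KIF21A fell less, from 34.1, 33.9 and 37.1 TPM to 22.5, 23.5 and 25.0, by 0.38 (SE 0.05, adjusted p = 6.61e-07, edgeR). The TPM ratio of KIF21B to KIF21A was 2.85 ± 0.24 (SD, n = 3) in the controls and 1.35 ± 0.068 in the knockdown, with no overlap. KIFC2, a minus-end-directed kinesin of neurites, was lower at -0.38 ± 0.10 (adjusted p = 0.0027, edgeR).

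**Figure D4:**
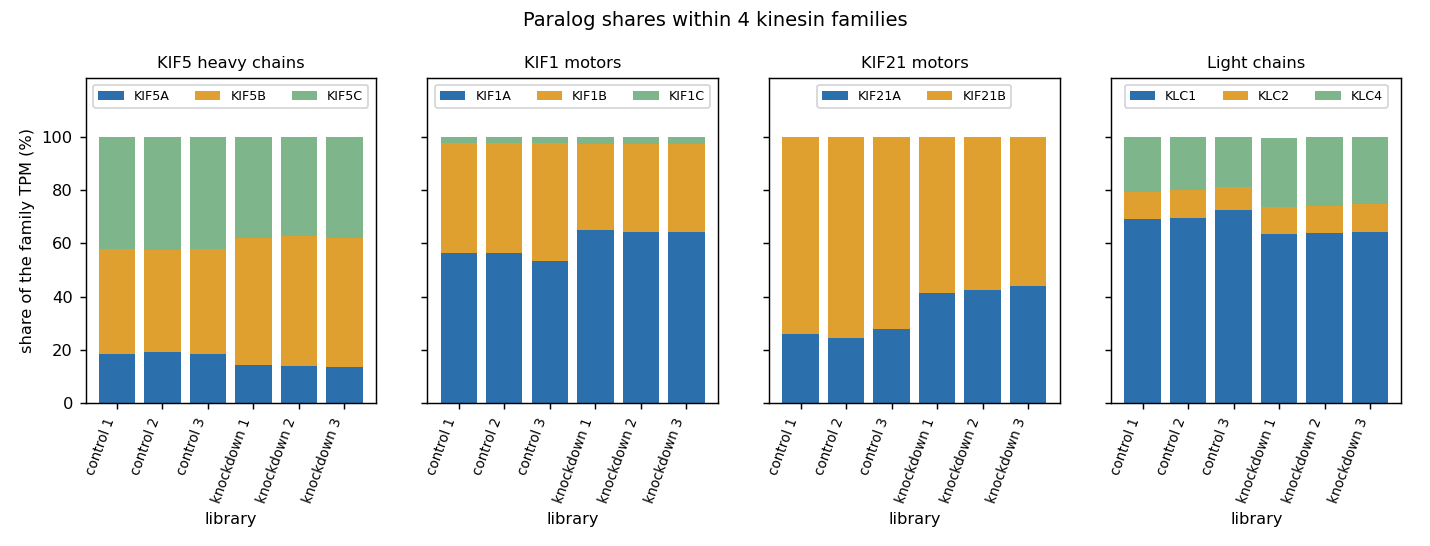
Share of family TPM held by each paralog in each library, for the KIF5 heavy chains, KIF1 motors, KIF21 motors and light chains. In the knockdown libraries KIF5B holds 47.7 to 48.9% of KIF5 TPM against 38.1 to 39.6% in the controls, and KIF21A holds 41.5 to 44.0% of KIF21 TPM against 24.4 to 27.7%.

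Transport kinesins known as neuron-enriched fell in 8 of 9 cases, with KIF1A not called, and their median was -0.45 (log2 fold change). The other 10 gave 1 higher, 6 lower and 3 not called, with a median of -0.22. Over all genes tested, 25.3% were lower and 26.4% higher. Summed TPM of the neuron-enriched kinesins divided by that of the pan-neuronal genes was 0.213 ± 0.0041 (SD, n = 3) in the controls and 0.208 ± 0.0027 in the knockdown, and the groups overlapped. The part of neuronal content in the fall was not tested. On log2(TPM + 1) the median was -0.16 for all genes and -0.09 for the kinesin genes, which had a median of 0.05 in the count test. Over the whole family, summed TPM was 1535 to 1562 in the controls and 1268 to 1302 in the knockdown. Mitotic kinesins held 15.0% ± 0.19 of it in the controls and 25.8% ± 0.43 in the knockdown, and transport kinesins held 79.8% ± 0.21 and 68.4% ± 0.26. The ratio of mitotic to transport TPM went from 0.188 ± 0.0029 to 0.377 ± 0.0078.

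Several of these genes lie on chromosome 1, where neighbouring genes were also lower. KIF21B (chromosome 1) had 63 other tested genes within 5 Mb, 65.1% of them called lower, at a median of -0.56 (log2 fold change). KIF14, in the same stretch of the chromosome, had 58 neighbours at -0.60, of which 70.7% were lower. KIF1B and KIF17 lay close to their neighbours, at -0.59 against -0.52 and -0.56 against -0.54. KIF21B was 0.91 lower than its neighbours' median (log2), while KIF2C lay 1.24 above the median of its 94 neighbours, which was -0.47. KIFAP3 and KIF26B, also on chromosome 1, had neighbour medians of 0.18 and 0.06. Whether the neighbourhood has a part in these values was not tested. Outside chromosome 1, all 10 mitotic kinesins tested were higher, with a median of 0.84, and of 15 transport kinesins 1 was higher, 10 were lower and 4 were not called, with a median of -0.27.

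**Figure D5:**
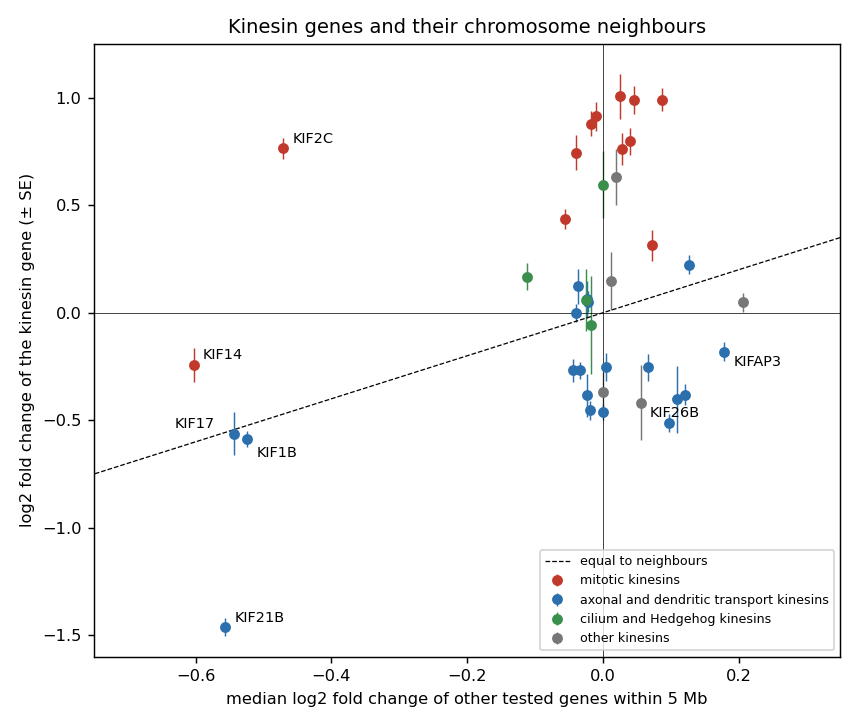
Log2 fold change of each tested kinesin gene (with SE) against the median log2 fold change of the other tested genes within 5 Mb, with a dashed line where both are equal and colours for role. KIF14, KIF21B, KIF17, KIF1B and KIF2C have neighbour medians between -0.60 and -0.47.

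Genes that attach cargo or regulate kinesins gave 3 higher, 13 lower and 9 not called among 25, against 26.4% higher and 25.3% lower over all genes tested, and their median was -0.25 (log2 fold change). MAPT, the axonal microtubule protein tau, changed by -0.56. CLSTN1, a cargo adaptor for KLC1, changed by -0.64 and MAP7D1, a microtubule protein that recruits kinesin-1, by -0.53, and both lie on chromosome 1. Among the higher genes were HAP1, an adaptor that binds huntingtin, at 0.54 and the mitochondrial GTPase RHOT1 at 0.11. On log2(TPM + 1) the difference of RHOT1 was -0.07. Dynein and its activator dynactin move cargo in the opposite direction. Of 26 dynein and dynactin genes, 11 were higher, 8 were lower and 7 were not called, with a median of 0.06, against 26.4% higher and 25.3% lower over all genes. NDE1, a dynein regulator needed for division of cortical progenitors, changed by 0.71, and DYNC1I1, the neuronal dynein intermediate chain, by -0.63. The cargo adaptors HOOK1, on chromosome 1, and BICD2 changed by -0.55 and -0.36, while the related HOOK3 was higher at 0.25. Dynein and dynactin TPM divided by transport kinesin TPM was 2.27 ± 0.022 (SD, n = 3) in the controls and 2.97 ± 0.055 in the knockdown, with no overlap. Both sums were lower in the knockdown. The dynein and dynactin sum was 2762 to 2836 TPM in the controls and 2583 to 2614 in the knockdown. For the transport kinesins it was 1222 to 1244 and 867 to 894.

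Of 6 kinesins of cilia and Hedgehog signalling, 4 were tested. KIF24, which acts at centrioles to restrain cilium formation, had 2.89, 3.77 and 4.05 CPM against 5.73, 5.0 and 5.39, a log2 fold change of 0.60 ± 0.16 (adjusted p = 0.00282, edgeR). The call was lost on log2(TPM + 1) (adjusted p = 0.0813, limma), and the gene overlaps NUDT2 and UBAP1. KIF27, a relative of KIF7, had 35.0, 34.2 and 36.4 CPM against 38.2, 41.0 and 39.4 and was called higher at 0.17 ± 0.06 (adjusted p = 0.0274, edgeR), and 7 of 13 alternatives lost the call or turned the sign. KIF7, which controls GLI factors at the cilium tip, was not called, at 0.06 ± 0.15 (adjusted p = 0.764, edgeR). KIF9 was not called either (adjusted p = 0.855, edgeR). KIF6 and KIF19, both of motile cilia, had at most 6 counts in any library.

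Of the 8 remaining kinesins, 5 were tested. KIF16B, which moves early endosomes, had 4.71, 4.92 and 4.25 CPM against 7.37, 7.23 and 6.92, a log2 fold change of 0.63 ± 0.13 (adjusted p = 2.81e-04, edgeR). KIF26A, an atypical kinesin without ATPase activity, had 45.1, 53.7 and 39.1 CPM against 35.7, 33.6 and 37.0, and it fell by 0.37 (SE 0.09, adjusted p = 0.00473, edgeR). Its paralog KIF26B was called lower at -0.42 ± 0.17 (adjusted p = 0.0484, edgeR), but 8 of 11 alternatives lost the call. KIF2A, a depolymerase that trims axon branches, belongs to the kinesin-13 family with KIF2C but was not counted among the mitotic kinesins. That placement was a choice, and counting KIF2A with them would add a gene that was not called. KIF2A had 215, 211 and 228 CPM against 214, 234 and 229, and its log2 fold change was 0.05 ± 0.04 (adjusted p = 0.363, edgeR). KIF2A overlaps DIMT1, and its counts were not whole numbers in 6 libraries. KIFC3, a minus-end-directed motor of cell junctions, was not called (adjusted p = 0.386, edgeR). The 6 members that were not tested had between 0 and 11 counts per library.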

How the data were processed

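Gene counts, TPM and FPKM were deposited by the authors in a table of all bulk libraries. The authors deposited them as estimated counts per gene, of which 12.6 to 14.9% are not whole numbers, and they were rounded to whole counts. TPM values were deposited as levels per transcript length and library size. The authors also deposited a normalised read count, a signal made by multiplying counts by 1 factor per library, per the file headers and values, and it was not tested. Deposited FPKM values were used only with the counts to derive gene lengths. The submitters' processing notes name hg38, while no source used here names the aligner or counter. Genes were filtered with filterByExpr (minimum count 10, total 15), scaled by TMM and tested with edgeR 4.0.16 in R 4.3.3 (robust quasi-likelihood F-test, Benjamini-Hochberg adjustment over 13468 genes, threshold 0.05). The SE is the absolute log2 fold change divided by the square root of F. DESeq2 1.42.0 and limma 3.58.1 on log2(TPM + 1) were alternatives. Counts are not molecules, and a floor of 3 counts equals 0.188 to 0.217 CPM, which covers counting error only. The biological coefficient of variation was 4.03%. Any member could be named in the text, and from each other list up to 4 genes with the smallest p, some of which are not reported here. NUMA1, CENPE, HOOK3, HAP1, RHOT1, AIF1 and LIN28A were named or given values after their values were seen. The members and lists were chosen with earlier results of these data known.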

Additional observations from a re-analysis of the deposited data

How the results depend on the processing

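Of 32 kinesin genes called, 25 kept their direction and call in every alternative that tested them (13 for each but KIF16B, which had 12), and of 511 gene values compared, 462 kept both. On log2(TPM + 1) with limma, 1475 genes were higher and 5694 lower, transport kinesins called higher numbered 0, and the medians were 0.57 (mitotic) and -0.44 (transport). With library totals the medians were 0.71 and -0.34, and with at least 10 CPM they were 0.76 and -0.29. The share of calls that were higher was 51.1% with TMM, 37.7% with library totals and 20.6% on TPM. DESeq2 called 0 mitotic kinesins lower. Leaving out each library in turn gave medians of 0.75 to 0.85 and -0.34 to -0.25, 0 to 1 mitotic genes lower, 13 to 14 transport genes lower, and 5888 to 6983 genes called. The fit with a replicate block called 7114 genes. Deviations of same-numbered libraries from their group means were weakly correlated (0.0698, 0.0653 and 0.0393). No label says that the numbers pair libraries, and correlations this low cannot exclude a pairing with small effects. Signs turned only for genes that were not called, and for KIF27. On log2(TPM + 1) the values were -0.0878 for KIF13A, -0.0915 for KIF1C, -0.0194 for KIF27, -0.13 for KIF2A, -0.0815 for KIF7, -0.00887 for KIFC3 and -0.12 for KLC4. With library totals they were -0.00567 for KIF1C, -0.0197 for KIF2A, -0.0102 for KIF7 and -0.0169 for KLC4. KIF1A was 0.00154 in DESeq2, 0.00953 with no low-count filter and 0.000415 with the replicate block. Leaving out each library gave ranges of -0.0360 to 0.0258 for KIF1A, -0.0471 to 0.20 for KIF7, -0.24 to 0.0873 for KIF9, -0.0157 to 0.25 for KIFC3 and -0.00568 to 0.0945 for KLC4. The cause was not tested. Depth limits the scarce genes: 6 members were too low to test.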
